A study of Zea mays with 20 samples.

Results

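Ear primordia of maize homozygous for kn1-e1, a loss-of-function allele of knotted1, were compared with ear primordia of their siblings across the genes of the deposited count table. The comparison used 4 of the 20 libraries of the study, 2 from kn1-e1/kn1-e1 ears and 2 from sibling ears, chosen by genotype and tissue label. Of 39656 genes in the table, 21281 had enough counts in these 4 libraries to be tested. All plants carried the inbred background B73 and grew in the field. Each library was a pool of 6 to 8 dissected primordia and was described as a biological replicate. The mutant primordia were 4 to 5 mm long and the sibling primordia 7 to 8 mm, so the developmental stage that goes with length and the genotype cannot be told apart in any difference below. Siblings were titled wild type, carried the genotype label kn1-e1/+ and were described in the design as heterozygous or wild type. Tassel primordia (3 kn1-e1 and 3 sibling libraries) and shoot apical meristems (SAM, 2 and 2) of the same genotypes were used where the effect in the ear was set against another tissue. The tassels, in pools of 10, were 2 to 3 mm long in mutants and 4 to 5.5 mm in siblings. The SAM, in pools of 15, were labelled day 19 in both genotypes. No length was given for the SAM. A difference between ear and SAM effects thus holds a length difference on the ear side, and whether it holds one on the SAM side is not known.

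The gene kn1 (GRMZM2G017087) encodes a homeobox transcription factor of the KNOX class, which keeps cells of shoot and inflorescence meristems from differentiating. The ear is the female inflorescence of maize. Its inflorescence meristem forms spikelet pair meristems, then spikelet meristems and floral meristems, in which MADS-box factors of the floral classes specify organs and YABBY factors mark lateral organs. Loss-of-function alleles of kn1 are known for sparse inflorescences.

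Depth ran from 16584659 to 20722952 counts per ear library, with 25302 to 25842 genes detected in each. Levels are given as CPM, counts scaled to a common library size after TMM normalization, and effects as log2 fold changes of kn1-e1 over sibling ± an approximate standard error. Adjusted p-values come from edgeR's quasi-likelihood F test with Benjamini-Hochberg adjustment over all genes tested, and a gene was called at an adjusted p under 0.05. The kn1-e1 library 1 stood apart for a few genes. In it, 18 genes of at least 1 CPM were at least 4 times as high as in kn1-e1 library 2, against 0 genes the other way, and the sibling libraries gave 4 and 5 such genes. Of the 18, 10 were among the genes called higher in kn1-e1. Each of these 10 had a higher mean level in sibling tassels than in sibling ears, as GRMZM2G131421 with 238 against 0.477 CPM. All 10 inflorescence and spikelet meristem markers were detected in every ear library, with a summed level of 376 to 392 CPM in kn1-e1 and 443 to 456 CPM in sibling ears. The direction rested on kn1, itself 1 of the 10: the other 9 summed to 342 and 359 CPM in kn1-e1 and 314 and 318 CPM in sibling ears. Of 6 anther and pollen markers, 5 were too low to test, and ms8 was at 0 in all ear libraries. The sixth, ocl4, which is also on the epidermis list, was at 118 and 124 CPM in kn1-e1 and 151 and 149 CPM in siblings and fell (-0.31 ± 0.053, adjusted p = 0.00119). Bulk RNA cannot tell fewer cells of a type from less RNA per cell.

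The kn1 transcript was at 33.9 and 33.7 CPM in kn1-e1 ears and at 129 and 138 CPM in sibling ears. The groups did not overlap, and the log2 fold change was -1.98 ± 0.0629 (adjusted p = 8.22e-10). The transcript remained countable in mutant ears, at 719 and 667 reads. In tassel the change was -2.12 ± 0.115 and in SAM -1.66 ± 0.127, and the test of the difference from the ear called neither (adjusted p = 0.736 and 0.398).

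Across the transcriptome, 3955 genes were called, 18.6% of those tested: 1748 were higher in kn1-e1 (8.21%) and 2207 lower (10.4%). Most changes were small. Only 277 genes rose (1.3%) and 234 fell (1.1%) by at least 2-fold. The median log2 fold change over all genes was 0.01 with TMM scaling, which centres most genes near 0, and 0.06 with library totals. The groups of 2 did not overlap for 60.3% of all tested genes, called or not, and a lack of overlap alone therefore says little here. The split depended on scaling. With library totals in place of TMM, 2668 genes were higher and 1541 lower. DESeq2 called 1846 genes. Leaving out kn1-e1 library 1 gave 4409 calls and kn1-e1 library 2 gave 5898, whereas leaving out sibling library 1 gave 1313 and sibling library 2 gave 1167, each fit then having 1 residual degree of freedom.

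**Figure D1:**
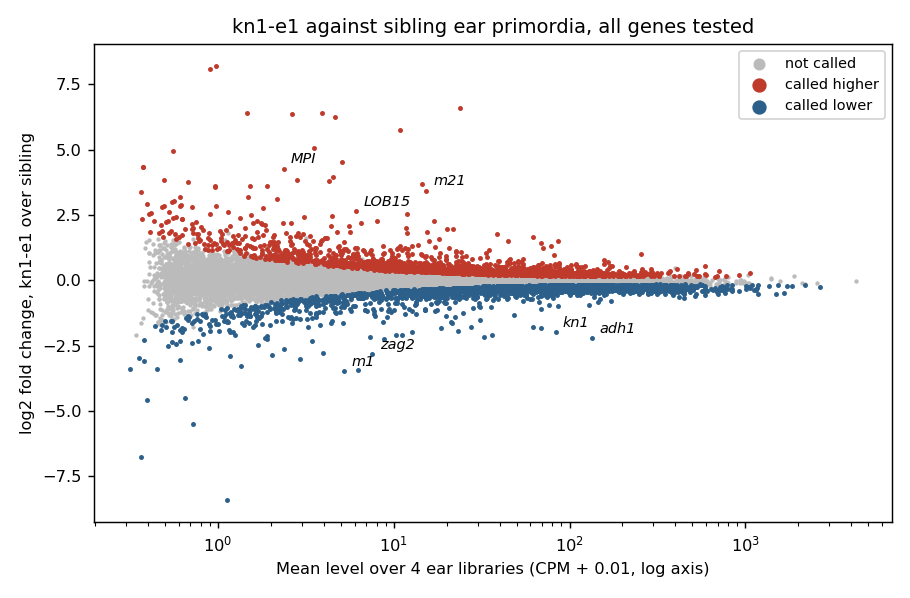
Log2 fold change of kn1-e1 over sibling ear against the mean level over the 4 ear libraries (CPM plus 0.01, log axis), 1 point per tested gene, red called higher and blue called lower. Most called genes lie within 1 log2 unit of 0, while m21 and LOB15 stand high and kn1, zag2, m1 and adh1 low.

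MADS-box genes, among them the floral organ factors, mostly fell. Of 36 tested members, 22 fell and 4 rose, 72.2% called against 18.6% of all genes, and the median log2 fold change was -0.56 against 0.01 over all genes. Between 17 and 23 members fell when any 1 ear library was left out, and 2 rose without either sibling library. Copies of MADS-box, histone, tubulin and ribosomal protein genes can be nearly identical, and how the counting divided their reads was not given in the sources used here, so values of single copies carry that uncertainty.

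Genes of the SEPALLATA type, which act with other floral classes in flower meristems, were among the strongest. The member zmm6 (GRMZM2G159397) was at 12.3 and 11.4 CPM in kn1-e1 and 56.5 and 50.3 CPM in sibling ears. Both mutant values lay far under both sibling values, a change of -2.17 ± 0.0895 (adjusted p = 5.86e-09). Its relative zmm27 was at 16.3 and 15.7 CPM against 48.1 and 43.1 CPM, again without overlap (-1.51 ± 0.0858, adjusted p = 1.72e-07). The MADS-box gene MADS5 showed 29.4 and 26.6 CPM in mutants and 101 and 91.7 CPM in siblings, a change of -1.78 ± 0.0738 (adjusted p = 5.86e-09). A gene model listed as MADS7, GRMZM2G099522, changed by -1.79 ± 0.106 (adjusted p = 2.11e-07). By contrast zmm31 moved less: 58.3 and 55.6 CPM against 76.7 and 75.9 CPM, or -0.42 ± 0.0607 (adjusted p = 0.000387).

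B-class genes, which specify the inner sterile organs and stamens of the flower, fell as well. Silky1, the maize counterpart of the Arabidopsis B-class gene APETALA3, was at 12.1 and 12.3 CPM in kn1-e1 and 32.4 and 32.9 CPM in siblings. Replicates were nearly level within each group, and the change was -1.42 ± 0.0885 (adjusted p = 3.19e-07). The B-class gene zmm16 was at 29.2 and 26.3 CPM against 71.8 and 66.2 CPM (-1.31 ± 0.0751, adjusted p = 1.72e-07). Its relative zmm29 was much scarcer, at 0.614 and 0.354 CPM against 3.87 and 3.3 CPM, a change of -2.86 ± 0.32 (adjusted p = 6.4e-05).

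Genes of the C and D classes, which specify carpels, ovules and floral determinacy, fell together with them. ZAG1 was at 4.72 and 3.74 CPM in kn1-e1 and 19.7 and 16.6 CPM in sibling ears (-2.09 ± 0.146, adjusted p = 9.57e-07). The carpel and ovule gene zag2 was at 1.89 and 1.82 CPM against 14.9 and 11.6 CPM, a change of -2.83 ± 0.182 (adjusted p = 4.4e-07). A larger change was that of m1, a MADS-box gene at 1.09 and 0.607 CPM against 10.6 and 8.6 CPM (-3.47 ± 0.242, adjusted p = 9.57e-07). The AGL6-type gene ZAG3, known as bearded-ear and active in floral meristems, changed by -1.01 ± 0.0727 (adjusted p = 1.33e-06), from 47.2 and 48.7 CPM in siblings to 24.3 and 23.4 CPM. For m25, 1 count in the mutant libraries stood against 26 in the sibling libraries, a ratio of 29.0 with an exact 95% counting interval of 4.76 to 1189.

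MADS-box genes that did not follow the floral classes were also present. The AP1-type gene zap1 was at 139 and 149 CPM in kn1-e1 and 141 and 139 CPM in siblings, with overlapping groups and a change of 0.04 ± 0.0546 (adjusted p = 0.638). The 4 that rose were m21, tunicate1, m26 and MADS76. For m21 (GRMZM5G814279) the mutant ears held 29.3 and 26.8 CPM and the sibling ears 2.46 and 2.73 CPM, the smallest p of the tested MADS-box genes (3.43 ± 0.131, adjusted p = 4.98e-09). The gene tunicate1, whose dominant alleles give pod corn with enclosed kernels, was at 4.25 and 3.39 CPM against 1.11 and 1.52 CPM (1.52 ± 0.258, adjusted p = 0.00118). A further member, m26, was at 3.63 and 4.6 CPM against 1.91 and 1.99 CPM (1.07 ± 0.227, adjusted p = 0.00522). Neither m26 nor MADS76 was called without either sibling library, and MADS76 was also not called by DESeq2 or without kn1-e1 library 1.

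YABBY genes, which are expressed in organ primordia and in developing carpels, all moved one way. Of the tested members 100% were called, against 18.6% of all genes, whose median was 0.01, and DESeq2 called 6. Every one of the 7 tested members fell, with a median of -0.56, and between 5 and 7 were called when any 1 ear library was left out. YAB5 was at 8.87 and 9.96 CPM in kn1-e1 and 21.8 and 20.0 CPM in siblings (-1.15 ± 0.11, adjusted p = 1.93e-05). The more abundant yab14 was at 45.8 and 47.0 CPM against 77.7 and 73.3 CPM (-0.70 ± 0.0634, adjusted p = 1.22e-05). The yabby15 transcript, at 75.2 and 76.0 CPM against 106 and 99.4 CPM, changed least (-0.44 ± 0.0581, adjusted p = 0.000229). For the eighth matched member, YAB11, counts were too low to test.

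**Figure D2:**
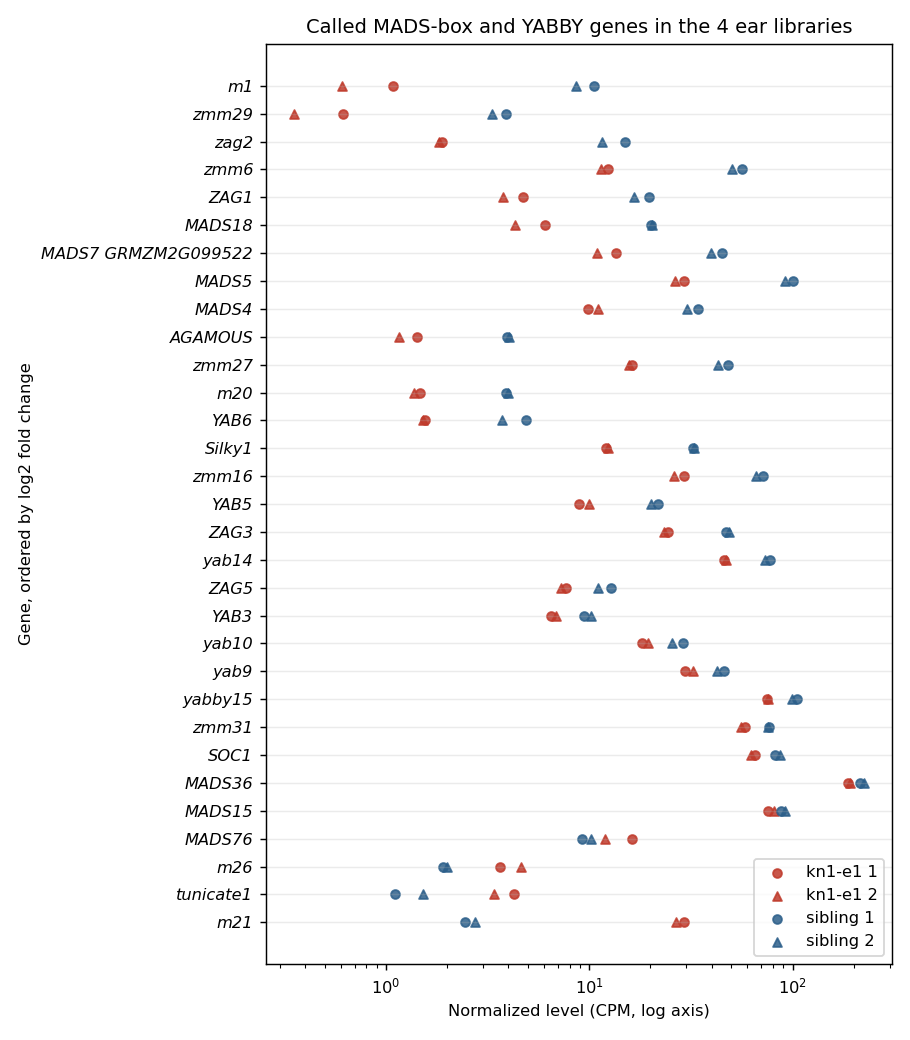
Normalized level of each called MADS-box and YABBY gene in the 4 ear libraries (CPM, log axis; circles library 1, triangles library 2), ordered by log2 fold change, leaving out 2 called genes with a library at 0 CPM. Mutant points lie to the left of sibling points except for MADS76, m26, tunicate1 and m21.

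Genes of spikelet and branch meristems moved in both directions. Of 22 tested inflorescence architecture genes, 7 rose and 5 fell, 54.5% called against 18.6% of all genes, with a median of -0.06. DESeq2 called 5 higher and 2 lower, and leaving out a sibling library left 3 and 3 (library 1) or 2 and 2 (library 2). The spikelet meristem genes ids1 and bd1 fell. The AP2-type factor ids1, which limits the number of florets, was at 36.8 and 44.9 CPM in kn1-e1 and 55.5 and 60.1 CPM in siblings (-0.51 ± 0.0867, adjusted p = 0.0013). The gene bd1, an ERF-type factor that gives spikelet meristems their identity, was at 7.55 and 7.49 CPM against 11.2 and 10.8 CPM (-0.54 ± 0.123, adjusted p = 0.00783), and was not called by DESeq2 or without either sibling library.

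The genes lg2 and ts1 fell too, ts1 not by DESeq2 or without sibling library 2, while ra3, a trehalose-phosphate phosphatase that restricts ear branching, rose. The bZIP gene lg2, needed for ligules and for tassel branching, was at 4.91 and 5.11 CPM against 14.6 and 11.9 CPM (-1.40 ± 0.144, adjusted p = 3.56e-05). For ra3 the values were 25.3 and 24.5 CPM in kn1-e1 and 15.1 and 19.4 CPM in siblings (0.53 ± 0.11, adjusted p = 0.00474), a call lost without sibling library 1. Its partner in branch control, ra1, was at 7.46 and 8.04 CPM against 6.09 and 5.87 CPM, which did not pass (0.37 ± 0.142, adjusted p = 0.0845) except with library totals.

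Of 21 tested SBP-box factors, regulators of phase change and branching, 7 rose and 1 fell, 38.1% called against 18.6% of all genes. The median was -0.00, with 10 members positive and 11 negative. Leaving out sibling library 2 left 3 higher. The genes ub2 and ub3 limit the number of rows initiated by the ear meristem. The ub2 transcript was at 74.7 and 84.6 CPM in kn1-e1 and 51.7 and 52.7 CPM in siblings (0.61 ± 0.0698, adjusted p = 7.66e-05). That of ub3 was at 39.7 and 41.4 CPM against 31.9 and 28.2 CPM (0.44 ± 0.0794, adjusted p = 0.00199), not called without sibling library 2. The largest increase in the family was sbp2, with 32.8 and 29.4 CPM against 15.3 and 13.5 CPM (1.12 ± 0.0984, adjusted p = 9.67e-06).

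Other KNOX genes moved far less than kn1. Of the 11 tested KNOX and BELL homeobox genes, 4 fell, kn1 included, and 1 rose (45.5% called against 18.6% of all genes), whereas without sibling library 1 there were 2 and 0. The KNOX gene lg4 was at 26.6 and 30.3 CPM in kn1-e1 and 41.4 and 42.0 CPM in siblings (-0.55 ± 0.0798, adjusted p = 0.00041). Another KNOX gene, knox8, changed by -0.37 ± 0.0745 (adjusted p = 0.00368) and gnarley1 by 0.31 ± 0.066 (adjusted p = 0.00549), neither called without sibling library 1.

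Among genes of meristem size control, 6 of 14 tested members of the CLAVATA and WOX list fell and 2 rose, 57.1% called against 18.6% of all genes, with a median of -0.33. DESeq2 called 2 lower and 0 higher. With 1 library left out there were 3 lower and 1 higher (kn1-e1 library 1), 6 and 1 (kn1-e1 library 2), 3 and 0 (sibling library 1) or 2 and 0 (sibling library 2), and library totals gave 3 lower. The receptor gene fea3, which restrains stem cell proliferation, was at 34.7 and 34.2 CPM in kn1-e1 and 55.3 and 52.4 CPM in siblings (-0.64 ± 0.0675, adjusted p = 3.89e-05). The WOX gene ns1, needed for the margins of lateral organs, was at 2.69 and 3.19 CPM against 6.09 and 5.98 CPM (-1.04 ± 0.183, adjusted p = 0.00156). The response regulator gene abph1, a negative regulator in cytokinin signalling that affects phyllotaxy, changed by -0.92 ± 0.203 (adjusted p = 0.00647), not called by DESeq2 or without sibling library 2. The CLAVATA2-type receptor gene fea2 was at 34.5 and 33.3 CPM against 32.0 and 29.9 CPM and was not called (0.13 ± 0.0763, adjusted p = 0.247).

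Most ribosomal protein and histone genes fell, by less than 1 log2 unit. Of 33 tested cytosolic ribosomal protein genes, 27 fell and 1 rose, 84.8% called against 18.6% of all genes, with a median of -0.34 and a range of -0.56 to 0.40. The 1 that rose, rps10 (0.40 ± 0.125, adjusted p = 0.041), lies 32 tested genes from kn1, among the linked genes described below. The ribosomal protein gene rps24 was at 66.4 and 70.2 CPM in kn1-e1 and 98.9 and 102 CPM in siblings (-0.56 ± 0.059, adjusted p = 3.94e-05). Of 11 histone genes, 10 fell, 90.9% called, with a median of -0.37 and a range of -0.49 to -0.09, and 6 were called without sibling library 1. The histone H2A gene his2a1 was at 1275 and 1468 CPM against 1923 and 1920.2 CPM (-0.49 ± 0.059, adjusted p = 0.000114).

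The cell cycle and DNA replication list gave 18 lower and 1 higher of 36 tested genes, 52.8% called against 18.6% of all genes, with a median of -0.18. This count moved with the settings, as did that of all genes. DESeq2 and scaling by library totals each called 10 lower. Over all genes they called 1179 and 1541 lower, against 2207 in the full fit. Leaving out either sibling library lowered both the count of this list and that of all genes. The replication clamp gene pcna2 was at 329 and 368 CPM in kn1-e1 and 460.5 and 437 CPM in siblings (-0.36 ± 0.0584, adjusted p = 0.000841). RBR2, a retinoblastoma-related gene of a family that holds back S phase, was the 1 that rose, from 22.1 ± 1.48 to 32.4 ± 2.45 CPM (mean ± SD, n = 2 each; log2 fold change 0.55 ± 0.0887, adjusted p = 0.000842).

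Of 19 tested genes of epidermis and wax, 8 fell, 0 rose and 11 were not called. The 42.1% called stood against 18.6% of all genes, the median was -0.35, and 5 were called without sibling library 2. Several were HD-ZIP IV factors of the outer cell layer. Of these, ocl3 was at 47.1 and 48.3 CPM in kn1-e1 and 67.3 and 63.1 CPM in siblings (-0.45 ± 0.0646, adjusted p = 0.000381). The factor HDZIV8_OCL8 changed by -0.41 ± 0.0658 (adjusted p = 0.000893) and ocl1 by -0.39 ± 0.0726 (adjusted p = 0.00233).

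Photosynthesis genes were the list with the highest median, 0.84: 7 of 15 tested genes rose and 1, the plastid phosphoenolpyruvate transporter gene ppt1, fell, 53.3% called against 18.6% of all genes. The chlorophyll-binding protein gene lhcb6 was at 2.93 and 2.63 CPM in kn1-e1 and 0.492 and 0.629 CPM in siblings (2.29 ± 0.313, adjusted p = 0.000284). The thylakoid formation gene psb29 was at 7.55 and 7.49 CPM against 1.23 and 1.47 CPM (2.46 ± 0.202, adjusted p = 5.2e-06). For lhcb5 the values were 26.4 and 24.3 CPM against 15.0 and 13.5 CPM (0.84 ± 0.0981, adjusted p = 8.99e-05). The summed level of all 28 matched genes was 262 to 267 CPM in kn1-e1 and 263 to 278 CPM in sibling ears. Of these, 13 were too low to test, and cab48, PSBQ, psad1, psa6 and rca3 were at 0 in all 4 libraries. Whether green tissue took part in the rise was not tested.

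**Figure D3:**
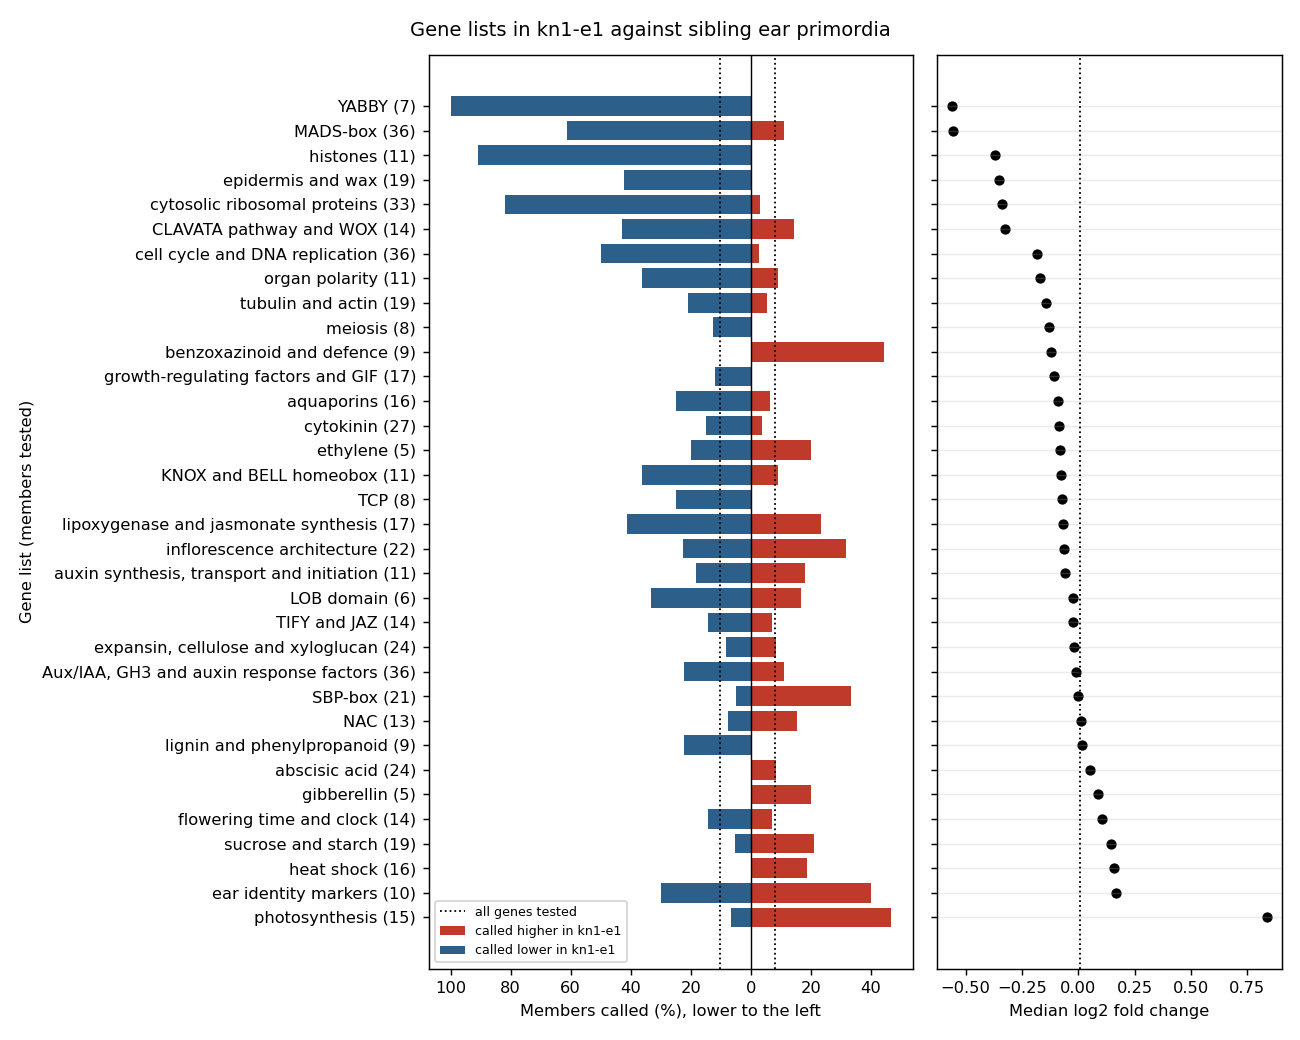
Left, percentage of tested members called higher (red, right) or lower (blue, left) in kn1-e1 for each gene list with at least 5 tested members, with dotted lines at the percentages over all genes tested (8.21 and 10.4). Right, median log2 fold change of each list, with the median of all genes dotted. YABBY and MADS-box genes have the lowest medians and photosynthesis genes the highest.

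Of 9 tested benzoxazinoid and defence genes, 4 rose and 0 fell, 44.4% called against 18.6% of all genes. The median was -0.12, with 5 of 9 members negative, and 3 or 2 fell when kn1-e1 library 1 or 2 was left out. The proteinase inhibitor gene MPI, usually induced by wounding, was at 5.33 and 3.64 CPM in kn1-e1 and 0.307 and 0.157 CPM in siblings. The groups were far apart (4.27 ± 0.39, adjusted p = 1.29e-05). Sibling levels this low rest on few reads, so the size of the ratio is uncertain. BX4 and BX5, cytochrome P450 genes of benzoxazinoid synthesis, changed by 0.56 ± 0.0771 and 0.42 ± 0.059 (adjusted p = 0.000305 and 0.000331).

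Of 16 tested heat shock genes, 3 rose and 0 fell, and the 18.8% called was near the 18.6% of all genes. DESeq2 called 1 higher, and 9 rose without kn1-e1 library 2. The summed level was 3806 CPM in kn1-e1 library 1 against 3034 CPM in kn1-e1 library 2 and 2887 to 3042 CPM in siblings. Hsp70 showed that imbalance. Its level was 133 and 55.0 CPM in kn1-e1 and 26.1 and 33.7 CPM in siblings (1.65 ± 0.28, adjusted p = 0.00118), and DESeq2 did not call it. The storage globulin gene GLB1 was at 6.8 and 1.77 CPM against 0.799 and 1.05 CPM (2.21 ± 0.515, adjusted p = 0.00931) and was not called by DESeq2 or without kn1-e1 library 1 or either sibling library. Why kn1-e1 library 1 was the higher of the 2 mutant libraries for both genes was not tested.

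Further large changes came from genes outside those groups. LOB15, a gene of the LOB domain family of boundary factors, was at 12.2 and 8.85 CPM in kn1-e1 and 2.03 and 1.36 CPM in siblings (2.65 ± 0.224, adjusted p = 6.61e-06). The soluble invertase gene ivr2, which cleaves sucrose, was at 7.27 and 12.1 CPM against 43.4 and 30.5 CPM (-1.93 ± 0.188, adjusted p = 2.25e-05). The auxin transport gene br2, which affects internode growth, was at 101 and 101 CPM against 67.1 and 62.7 CPM (0.64 ± 0.0595, adjusted p = 1.54e-05).

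The mutant effect in the ear was then tested against that in the other inflorescence. In tassel 1668 genes were called, 7.9% of 21117 (2.34% higher and 5.55% lower), and in SAM 34 genes, 0.164% of 20748. Of genes tested in both, 146 rose in ear and tassel, 8.55% of the ear list and 29.9% of the tassel list, and 255 fell in both, 11.9% and 23.3%. In addition 190 genes were called in opposite directions, among them GRMZM2G131421, whose ear increase came mainly from kn1-e1 library 1. The difference of effects, ear minus tassel, was called for 1169 genes (5.22%; 2.98% higher and 2.24% lower). Among them were all 10 genes called higher in kn1-e1 ears that stood apart in kn1-e1 library 1. Ear minus SAM was called for 1224 genes (5.47%; 2.12% higher and 3.35% lower). Leaving out kn1-e1 ear library 1 brought these counts to 373 and 378. Without sibling ear library 1 they were 394 and 415, and without sibling ear library 2 they were 384 and 381. Leaving out tassel libraries took the first to between 619 and 1135, and leaving out SAM libraries took the second to between 487 and 2191.

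The increase of m21 in the ear was larger than its change in either other tissue. The change was -0.06 ± 0.181 in tassel and -0.20 ± 0.115 in SAM, and the ear exceeded them by 3.46 ± 0.233 and 3.60 ± 0.177 (adjusted p = 5.01e-07 and 3.24e-09). The same held for tunicate1, with differences of 1.45 ± 0.206 and 1.55 ± 0.208 (adjusted p = 0.00063 and 0.000708). For zmm16 the change was -0.11 ± 0.0747 in tassel and -0.01 ± 0.133 in SAM, and the ear lay lower by differences of -1.22 ± 0.134 and -1.32 ± 0.148 (adjusted p = 3.98e-05 and 0.000139). The MADS-box gene listed as AGAMOUS fell in the ear, from 3.94 and 4.04 CPM to 1.42 and 1.16 CPM (-1.62 ± 0.239, adjusted p = 0.000465). In tassel it rose (1.21 ± 0.141, adjusted p = 0.000243), and the difference was -2.85 ± 0.271 (adjusted p = 1.96e-05).

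Other genes crossed 0 between the inflorescences. The growth repressor gene gt1, a homeobox gene that suppresses buds and carpels, was at 41.5 and 39.6 CPM in kn1-e1 ears and 30.9 and 26.2 CPM in sibling ears (0.51 ± 0.0854, adjusted p = 0.0011). Without sibling library 2 this increase was not called. It changed by -1.48 ± 0.179 in tassel, and the difference was 1.98 ± 0.219 (adjusted p = 4.65e-05). The cytochrome P450 gene CYP78A53 rose in ear (0.97 ± 0.0849, adjusted p = 9e-06) and fell in tassel (-0.29 ± 0.0464, adjusted p = 0.00223), a difference of 1.24 ± 0.115 (adjusted p = 5e-06). For psb29 the difference was 3.30 ± 0.305 (adjusted p = 5e-06). By contrast ub2 rose in both, and the difference of -0.25 ± 0.125 was not called (adjusted p = 0.26).

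Against SAM, the lipoxygenase gene lox1 gave opposite calls. It was at 39.2 and 40.5 CPM in kn1-e1 ears and 66.8 and 71.5 CPM in sibling ears (-0.80 ± 0.0661, adjusted p = 5.7e-06) but changed by 1.43 ± 0.151 in SAM, a difference of -2.25 ± 0.246 (adjusted p = 0.000114). EDS was at 0.566 and 0.455 CPM against 3.07 and 2.67 CPM in ear (-2.47 ± 0.315, adjusted p = 0.000171) and rose in SAM (2.75 ± 0.28, adjusted p = 0.000518). The lactate dehydrogenase gene LDH changed by -0.53 ± 0.0601 in ear (adjusted p = 6.7e-05), with a difference from SAM of -0.77 ± 0.0931 (adjusted p = 0.000252). The mutant effect was lower in ear than in SAM for 7 of 8 YABBY genes by the test of the difference, against 3.35% of all genes.

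**Figure D4:**
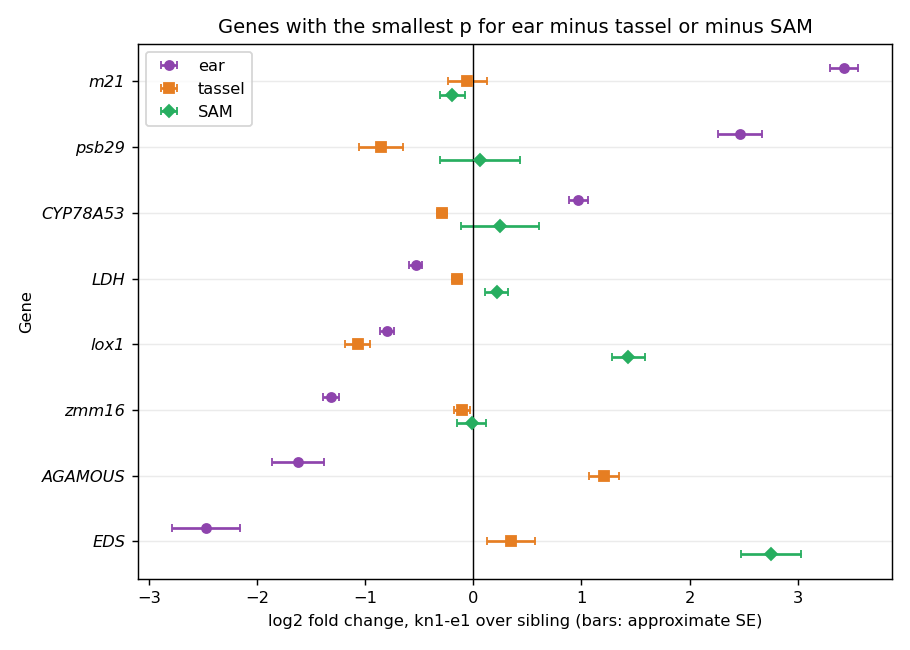
Log2 fold change of kn1-e1 over sibling (bars, approximate standard error) in ear, tassel and SAM for the 8 genes with the smallest p for ear minus tassel or ear minus SAM; AGAMOUS was not tested in SAM alone. The m21 and psb29 points of the ear lie right of those of the other tissues, and the EDS and AGAMOUS points left.

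The 34 calls in SAM limit how many genes can be called in all 3 tissues. Replicate spread was larger there, with a biological coefficient of variation of 0.0853 against 0.0526 in ear. Of 31 genes called in SAM among those tested in both, 15 were called in the same direction in ear and 6 in the opposite direction. Of all 20196 genes tested in both, 3715 were called in ear. In all 3 tissues 12 genes were called in the same direction, of which 11 fell and 1 rose. Besides kn1, the only one with a symbol was adh1 (GRMZM2G442658), an alcohol dehydrogenase gene of anaerobic metabolism. It was at 62.2 and 33.5 CPM in kn1-e1 ears and 226 and 217 CPM in sibling ears (-2.21 ± 0.168, adjusted p = 2.53e-06). The changes in tassel and SAM were -1.85 ± 0.13 and -2.49 ± 0.171, and neither difference from the ear was called (adjusted p = 0.497 and 0.701). GRMZM2G179490 had 0 counts in both mutant ear libraries and 79 in the 2 sibling libraries, at least 29.4-fold lower against a floor of 3 counts over the group.

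In the gene order of the reference assembly, adh1 lies 27 tested genes from kn1 and GRMZM2G179490 lies 4. Genes this close to the mutant locus are inherited with it, so a difference in their own alleles and an effect of kn1 cannot be told apart. Among the 50 tested genes on each side of kn1, 40 of 100 were called in the ear (15 higher and 25 lower), against 20.7% of the rest of chromosome 1 and 18.6% of all genes. DESeq2 called 23 of them, and 1846 genes in all against 3955 with edgeR. With either sibling ear library left out, fewer neighbours were called, and fewer genes in all. In tassel 38 of the 100 neighbours were called, against 10.6% of the rest of the chromosome. In SAM 4 of 100 were called, against 0.0947% of the rest of the chromosome and 0.164% of all genes. Of the 12 genes called in all 3 tissues, 6, kn1 included, matched exactly 1 gene of the reference, all on chromosome 1, and 4 besides kn1 lay within 50 tested genes of it. Those 4 were adh1, GRMZM2G179490, GRMZM2G401331 and GRMZM2G028500.

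**Figure D5:**
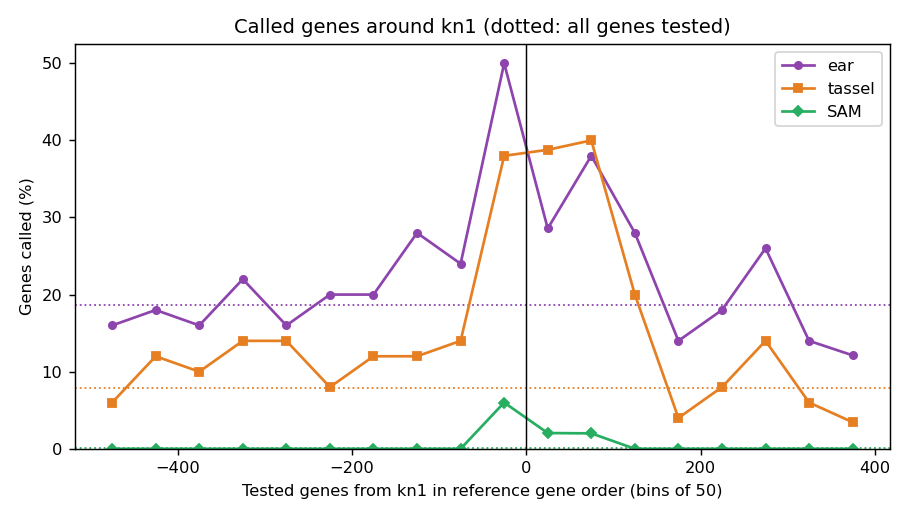
Percentage of tested genes called in bins of 50 genes by their distance from kn1, counted in tested genes in the gene order of chromosome 1, for ear, tassel and SAM, with dotted lines at the percentages over all genes tested. All 3 tissues have their highest bins within 100 genes of it.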

How the data were processed

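RNA was extracted from dissected primordia with Trizol and made into TruSeq libraries, per the labels' protocols; that kit keeps no strand, so reads of overlapping antisense genes cannot be told apart. The submitters' processing notes name CASAVA 1.8, TopHat 1.2.0, HTSeq and DESeq 1.4.1; no genome build is named there, and it was not given in the sources used here. Values were deposited by the authors as unnormalized counts per gene and library, and 0 value columns were left unmapped to samples. Symbols and gene order came from a RefSeq gene table (assembly NAM-5.0), which matched 18775 gene IDs (47.3%), 2446 of them with a symbol.

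The test was edgeR's quasi-likelihood F test (version 4.0.16, R 4.3.3) after TMM scaling and filterByExpr, set to at least 10 reads and 15 in total, with 2 residual degrees of freedom in ear. Ear minus tassel and ear minus SAM were contrasts of a model over 14 libraries (8 residual degrees of freedom). Standard errors were derived from the F statistic. The biological coefficient of variation was 0.0526 in ear. Counts of replicate libraries differed by more than sampling noise in every group. The scripts were tested on simulated data before use.

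The 37 gene lists, the genes and the tests were chosen with earlier results of these data known. Genes were named by rule: kn1, up to 3 called members per list by smallest p, the 8 largest increases and decreases among non-overlapping genes with a symbol of at least 1 CPM, 5 each by smallest p for the tissue differences, and up to 8 called alike in all 3 tissues. Other list members and genes without a symbol were picked after their values were seen. Alternatives used DESeq2 1.42.0, other scalings and filters, single libraries left out and a replicate block. Counting intervals cover counting error only. No sequences are shown, and promoter motifs were not analysed here.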

Additional observations from a re-analysis of the deposited data

Results flagged for a closer look

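The tests of the difference between tissues called 1169 genes for ear minus tassel and 1224 genes for ear minus SAM. Among named genes, the kn1-e1 effect in ear exceeded that in tassel for m21 by 3.46, for psb29 by 3.30 and for CYP78A53 by 1.24 log2 units. The ear effect was lower than that in tassel for AGAMOUS, with a difference of -2.85, and for zmm16, with a difference of -1.22. Against SAM, m21 was again higher in ear by 3.60, whereas the differences were -5.24 for EDS, -2.25 for lox1, -1.32 for zmm16 and -0.77 for LDH. Each of these 10 differences of single genes was called in every alternative run for it. Ear and tassel primordia were taken at different lengths in mutants and siblings, whereas SAM of both were labelled with the same day. The part of stage in the differences from tassel and from SAM was not tested.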

How the results depend on the processing

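The change of kn1 kept its direction and call under every alternative run, from -2.02 to -1.93 with 1 ear library left out. Of 105 named genes, 71 kept their call under every alternative, and none reversed. DESeq2 called 1846 genes (667 higher, 1179 lower), 203 shared with tassel in the same direction, and 23 neighbours of kn1. A 2-fold minimum left 511 genes (277 higher, 234 lower), and library totals gave 2668 higher. Leaving out 1 library gave 1167 to 5898 calls (480 to 2725 higher, 687 to 3173 lower), 373 to 1179 for ear minus tassel, 378 to 2191 for ear minus SAM, 192 to 479 shared with tassel in the same direction against 401 in the full fit, and 14 to 46 neighbours of kn1. Without a low-count filter 29 genes were shared with SAM in the same direction, against 15. Where an arm is left with 1 library, its spread is assumed to be that of the others. Same-numbered ear libraries are paired by number only, and their deviations correlated at r = 0.000729 over 21281 genes. A replicate block gave 776 genes for ear minus tassel, 633 for ear minus SAM and 27 shared between ear and SAM; it gave 4766 ear calls and changed no call of a named gene. With 2 pooled libraries per group, the spread between replicates rests on few samples, and low genes were not testable at this depth.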

Other observations

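Of 17 tested lipoxygenase and jasmonate synthesis genes, 7 fell and 4 rose, 64.7% called against 18.6% of all genes, with a median of -0.07. The allene oxide synthase gene aos1 was at 14.1 and 15.5 CPM in kn1-e1 and 23.3 and 23.1 CPM in siblings (-0.65 ± 0.0956, adjusted p = 0.000471), and lox11 changed by -0.88 ± 0.0995 (adjusted p = 7.03e-05). The allene oxide cyclase gene aoc1 was among those that rose (0.38 ± 0.0877, adjusted p = 0.00862), though not by DESeq2 or without either sibling library. DESeq2 called 3 lower and 0 higher, and none was called higher without either sibling library. Of 36 tested auxin response genes, 8 fell and 4 rose, 33.3% called against 18.6% of all genes, with a median of -0.01 and 17 members positive against 19 negative. The auxin response factor gene ARF2 was at 18.2 and 16.9 CPM against 26.6 and 27.7 CPM (-0.63 ± 0.0885, adjusted p = 0.00034). Of 19 tested sucrose and starch genes, 4 rose, 1 fell and 14 were not called, 26.3% called against 18.6% of all genes, and the starch synthase gene du1 changed by 0.64 ± 0.0753 (adjusted p = 8.78e-05).

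The lists of abscisic acid genes (2 of 24 called), gibberellin genes (1 of 5), brassinosteroid genes (0 of 4) and growth-regulating factors (2 of 17) had shares of calls near or under the 18.6% of all genes, apart from the 20.0% of gibberellin genes. Beyond genes with a symbol, GRMZM2G108807 had 80 counts in the kn1-e1 ear libraries and 0 in the sibling libraries, at least 23.9-fold higher against a floor of 3 counts over the group. GRMZM2G347762 had 73 and 0, at least 21.8-fold higher. Both also varied among the 3 sibling tassel libraries, with 0, 12 and 24 counts for GRMZM2G108807 and 40, 19 and 0 for GRMZM2G347762. Neither was called in tassel (adjusted p = 0.0608 and 0.068). In the other direction, GRMZM2G049798 had 1 count against 49, a ratio of 54.7 with an exact 95% counting interval of 9.36 to 2202.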
